A study of Mus musculus with 12 samples.

Results

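The 10 genes described here carry glucose through glycolysis to lactate and move glucose or lactate across the cell membrane. They are Slc2a3, Hk1, Pfkfb3, Aldoc, Aldoa, Pgk1, Pkm, Ldha, Ldhb and Slc16a1. They were chosen by name, as 10 of the 31053 gene rows of the count table. All 10 had UMIs (unique molecular identifiers, each standing for 1 captured RNA molecule) in every library, and all 10 passed the filter on low counts in astroglia-like cells.

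The study set young mouse striatal astrocytes beside mature ones. Cells were dissociated from wild-type striatum of a strain labelled mixed, and enriched with ACSA2 antibody beads, which bind an astrocyte surface protein. The study's methods name male mice of an inbred C57BL/6 strain where the labels say mixed, pool several animals for a preparation and leave out the subventricular zone. The study reports more preparations per age, under other library names, so it is not settled that these methods hold for each library here. The labels name no treatment. There were 2 libraries of postnatal mice and 2 of mice at 3 months (3m), read in 12 sequencing runs. The labels conflict on the postnatal ages. The titles put replicate 1 at day 7 and replicate 2 at day 3, while the age tags give day 3 and day 7. The study's text gives day 3 for its young striatal single-cell preparations. Both libraries were treated as postnatal. A library is the replicate here, with 2 per age, and an exact permutation test between ages cannot give a p below 0.333.

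The libraries held 7185335 to 11501049 UMIs, and 3163 of 4245 barcodes passed the study's limits of at most 10% mitochondrial UMIs and at least 500 genes. Median depth was 7737.5 to 11639.5 UMIs per remaining cell. Cells were gated into classes by lists of 8 markers each. A cell needed UMIs of at least 3 markers of its class and 3 markers more than of any other class. The astroglia-like class held 352 and 472 cells in the postnatal libraries and 304 and 296 at 3m, and all 8 of its markers were detected in each library. Their summed level was 6050 and 4493 CPM (UMIs per 1000000 UMIs of the class) postnatally and 13946 and 14211 CPM at 3m. No postnatal cell was gated as oligodendrocyte-like, against 554 and 292 cells at 3m. The replicate 2 libraries of both ages shared 95 barcodes, whereas no other pair of libraries shared more than 2. Of the smaller member of each shared pair, 0 postnatal and 5 3m cells were astroglia-like.

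Glycolysis splits glucose into pyruvate in the cytosol and yields ATP without oxygen. Astrocytes are known for a high glycolytic rate, and the lactate they make can leave the cell through monocarboxylate transporters and be taken up by neurons. Lactate dehydrogenase interconverts pyruvate and lactate. Its A subunit is usual in tissues that form lactate, and its B subunit in tissues that oxidise it. Endothelial cells of brain vessels carry glucose and lactate transporters at high density, and oligodendrocytes use MCT1, the product of Slc16a1, to pass lactate to axons.

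The members lie on 8 chromosomes of the mm10 (GRCm38) genome, and GENCODE vM21 lists each as a protein-coding gene. Aldoc spans chromosome 11 from 78322968 to 78327781 on the + strand. Slc16a1 spans chromosome 3 from 104638668 to 104658462 on the + strand. Ldha spans chromosome 7 from 46841475 to 46855627 on the + strand, and Ldhb spans chromosome 6 from 142490249 to 142507957 on the - strand. Pfkfb3 spans chromosome 2 from 11471433 to 11554077 and Hk1 chromosome 10 from 62268855 to 62379908, both on the - strand. Pgk1 spans chromosome X from 106187100 to 106203699 on the + strand. The 250 bases before the most upstream RefSeq start (build GRCm38.p6) were read for the 9 members with an entry. Shown are 4 that overlap no annotated exon, those of Slc16a1 and Hk1, which were higher at 3m in astroglia-like cells, of Ldha, which was lower, and of Pgk1, which was not called. Capitals mark ACGTG on either strand, the core letters recognised by hypoxia-inducible factors, which overlap the E-box CACGTG. In the order shown, the windows are chr3:104638414-104638663 (+), chr10:62379909-62380158 (-), chr7:46845554-46845803 (+) and chrX:106186850-106187099 (+). The Ldha window lies within the GENCODE span of the gene.
Slc16a1: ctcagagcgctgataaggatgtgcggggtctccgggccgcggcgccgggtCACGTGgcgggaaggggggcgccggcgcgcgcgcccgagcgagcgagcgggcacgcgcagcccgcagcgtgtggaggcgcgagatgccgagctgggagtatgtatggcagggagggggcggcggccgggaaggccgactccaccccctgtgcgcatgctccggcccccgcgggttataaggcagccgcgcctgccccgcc
Hk1: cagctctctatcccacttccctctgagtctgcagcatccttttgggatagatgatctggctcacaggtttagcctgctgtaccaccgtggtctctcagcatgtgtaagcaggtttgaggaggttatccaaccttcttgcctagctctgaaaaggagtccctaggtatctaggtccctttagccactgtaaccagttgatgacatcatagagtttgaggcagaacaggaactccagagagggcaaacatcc
Ldha: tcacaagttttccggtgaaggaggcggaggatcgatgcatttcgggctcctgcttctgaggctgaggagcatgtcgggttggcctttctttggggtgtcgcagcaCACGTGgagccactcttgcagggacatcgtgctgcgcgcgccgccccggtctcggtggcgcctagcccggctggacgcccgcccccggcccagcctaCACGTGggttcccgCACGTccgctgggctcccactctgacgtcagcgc
Pgk1: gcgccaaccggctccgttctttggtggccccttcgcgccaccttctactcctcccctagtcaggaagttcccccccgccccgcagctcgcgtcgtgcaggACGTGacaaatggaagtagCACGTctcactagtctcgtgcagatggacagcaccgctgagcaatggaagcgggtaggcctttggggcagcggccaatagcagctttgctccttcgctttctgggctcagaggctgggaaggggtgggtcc
ACGTG stood in 4 of the 9 windows, those of Pgk1, Ldha, Pfkfb3 and Slc16a1, and in 16.5% of 27025 windows of the same length. Ldha held 5 matches, 2 pairs of them within CACGTG, and the nearest began 34 bases before the start. Slc16a1 held a pair within 1 CACGTG that began 200 bases before the start, and Pgk1 held 2 separate matches. The letters CACGTG stood in the windows of Ldha and Slc16a1 and in 6.04% of all windows. AGGTCA, recognised by several nuclear receptors, stood only in the Ldhb window among the 9 and in 13.8% of all windows. Among the genes that rose, the Slc16a1 window had ACGTG and those of Hk1, Aldoc and Aldoa did not, and the windows of both genes that fell had it. Hk1, Aldoc, Ldha and Pfkfb3 have 2 listed starts and Aldoa 3, and windows of the other starts were not read. The Aldoa window lies within a GENCODE span of the gene, and those of Aldoc and Pfkfb3 overlap theirs.

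In astroglia-like cells, 4 of the 10 genes rose from postnatal life to 3m and 2 fell. Aldoc, Slc16a1, Hk1 and Aldoa rose, by log2 fold changes of 1.15 to 2.28, while Pfkfb3 and Ldha fell. Ldhb, Slc2a3, Pkm and Pgk1 did not pass both limits of the test (edgeR's quasi-likelihood test on sums per library, adjusted p at most 0.05 and a log2 fold change of at least 1 in size). Over all 11683 genes tested, 13.7% rose and 10.1% fell. Members had a median log2 fold change of 0.63, and all genes one of -0.00. CPM values of the ages did not overlap for 9 of the 10 members, beside 75.2% of all genes.

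**Figure D1:**
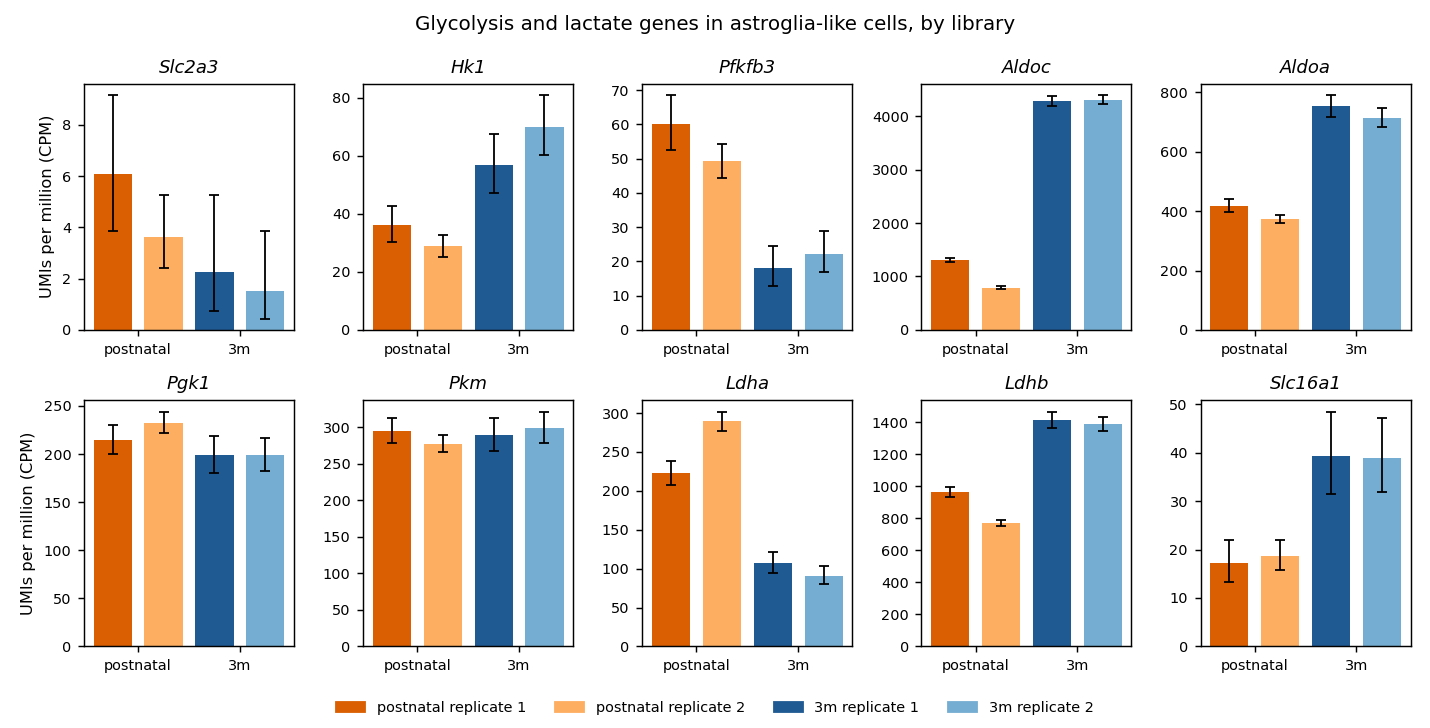
CPM of each member in astroglia-like cells, by library (2 postnatal, 2 at 3m), each panel on its own linear axis from 0, with bars for exact 95% Poisson intervals that cover counting error only. Aldoc stands at 1315 and 793 CPM postnatally and 4286 and 4310 CPM at 3m, and Ldha goes the other way, while Pkm overlaps between the ages.

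Slc2a3, the only glucose transporter gene among the members, encodes GLUT3, best known from neurons. It was barely present in astroglia-like cells, at 6.09 and 3.63 CPM postnatally and 2.25 and 1.51 CPM at 3m, or 23, 28, 5 and 4 UMIs. The log2 fold change was -1.07 ± 0.55 (SE, n = 2 libraries per age) with an adjusted p of 0.175 in edgeR's test. Slc2a1, no member but the astroglial and endothelial glucose transporter GLUT1, is given beside it. It stood at 26.0 and 23.6 CPM postnatally and at 138.9 and 138.8 CPM at 3m, a log2 fold change of 2.75 ± 0.16 (adjusted p = 0.000814, edgeR).

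Hk1, a hexokinase that phosphorylates glucose on entry, stood at 36.0 and 28.8 CPM postnatally and at 56.8 and 69.95 CPM at 3m. The log2 fold change was 1.24 ± 0.20 (adjusted p = 0.00677, edgeR). Pfkfb3, which makes the allosteric activator of phosphofructokinase and so speeds glycolysis, went down. Its values were 60.1 and 49.2 CPM postnatally against 18.0 and 22.3 CPM at 3m, with every postnatal library above both 3m libraries. The log2 fold change was -1.17 ± 0.22 (adjusted p = 0.00979, edgeR).

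The aldolases split fructose bisphosphate, and Aldoc encodes the brain form that marks astrocytes, Aldoa the form of muscle and most other tissues. Aldoc had the largest change among the members, from 1315 and 793 CPM to 4286 and 4310 CPM. The 3m libraries agreed closely, at 4298 ± 17.2 CPM (SD, n = 2), and the postnatal ones did not, at 1054 ± 369 CPM (SD, n = 2). The labels put the postnatal libraries at different days, so age and replicate spread cannot be told apart there. The log2 fold change was 2.28 ± 0.34 with a 95% interval of 1.46 to 3.11 (adjusted p = 0.00536, edgeR). Aldoa moved from 419 and 372 CPM to 753 and 715 CPM, a log2 fold change of 1.15 ± 0.19 (adjusted p = 0.00731, edgeR).

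The later steps that form ATP changed little. Pgk1, encoding phosphoglycerate kinase, stood at 215 and 233 CPM postnatally and 199 CPM in both 3m libraries. Its log2 fold change of 0.09 had a 95% interval of -0.27 to 0.46 (adjusted p = 0.659, edgeR). Pkm, encoding muscle-type pyruvate kinase, stood at 295 and 277 CPM postnatally and 289 and 299 CPM at 3m, and the ages overlapped. Its log2 fold change was 0.30, with an interval of -0.09 to 0.70 (adjusted p = 0.193, edgeR). Changes of 1 log2 unit or more lie outside both intervals.

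The lactate dehydrogenase subunits moved apart. Ldha stood at 223 and 289 CPM postnatally and 107 and 91.1 CPM at 3m, a log2 fold change of -1.10 ± 0.19 (adjusted p = 0.00779, edgeR). Ldhb stood at 965 and 769 CPM postnatally and 1413 and 1388 CPM at 3m. The Ldhb libraries did not overlap, and the adjusted p was 0.0223 in edgeR's test, but its log2 fold change of 0.95 ± 0.23 stayed under the limit of 1. Slc16a1, encoding MCT1, was low in astroglia-like cells and rose from 17.2 and 18.7 CPM to 39.2 and 38.9 CPM. Its log2 fold change was 1.38 ± 0.18 (adjusted p = 0.00371, edgeR).

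Only Aldoc and Slc16a1 kept their call under all 15 alternatives tried, the 4 that leave out a library included. Without 3m replicate 1, 3 members and 1081 of 12354 genes were called, against 2778 of 11683 with all libraries, Aldoa, Ldha and Pfkfb3 being lost at adjusted p of 0.092, 0.0673 and 0.0913. Without 3m replicate 2, 2 members and 980 of 12395 genes were called, Hk1 being lost as well (adjusted p = 0.0697). Without postnatal replicate 2, Ldha fell by 0.95, under the fold limit, and without postnatal replicate 1 Ldhb passed it at 1.15. Pfkfb3 also missed the fold limit without postnatal replicate 1. CPM without a scaling factor moved the median of all genes by -0.27, and Aldoa (0.89) and Hk1 (0.98) then missed the fold limit. On that scale Pgk1 stood at -0.17, and 38.1% of all called genes were higher at 3m against 57.4% with scaling.

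Several other gene lists moved with age in the same cells. All 10 immediate early genes, which also respond to dissociation, were detected postnatally, with a summed level of 5642 and 4200 CPM. At 3m their sum was 569 and 200.4 CPM, with 1 of the 10, Atf3, at 0 in each library. In 3m replicate 1 the 5 cells with at least 3 UMIs of cell cycle genes stood at 9989 CPM and the 291 with none at 131 CPM. Genes of the cell cycle summed to 439 and 1377 CPM postnatally and to 28.9 and 282 CPM at 3m, with 2 of the 10 at 0 in 3m replicate 1. The 8 oligodendrocyte markers summed to 13.2 and 10.5 CPM postnatally, with Mog and Cldn11 at 0 in both libraries, and to 79.8 and 80.5 CPM at 3m, with none at 0. Ribosomal protein genes summed to 81167 and 127607 CPM postnatally and 38217 and 34184 CPM at 3m, and the 13 mitochondrial genes to 27657 and 25707 CPM and then to 47868 and 54978 CPM. Among cells with no UMI of these oligodendrocyte markers, 5 members rose and 2 fell of 9 tested, beside 1456 genes that rose and 1214 that fell of 10824. Among cells with no UMI of the cell cycle genes, 4 rose and Pfkfb3 alone fell of 9 tested, beside 1506 genes that rose and 1231 that fell of 10881, as the log2 fold change of Ldha was -0.85. The part of the immediate early, ribosomal and mitochondrial genes in these values was not tested.

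**Figure D2:**
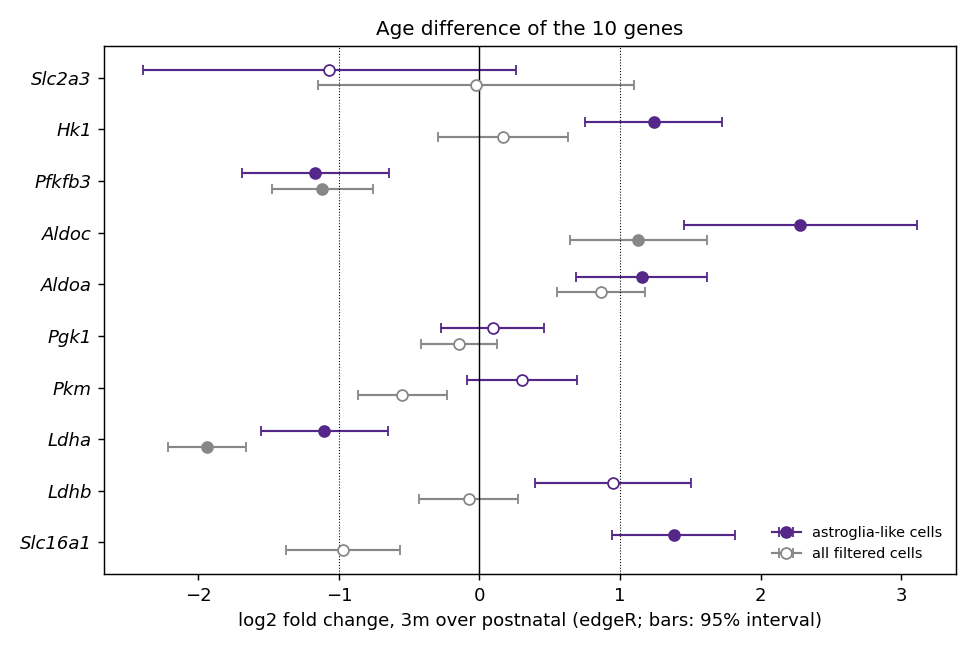
Log2 fold change of each member, 3m over postnatal, with 95% intervals from edgeR, in astroglia-like cells (purple) and in all filtered cells (grey), where filled points passed both limits and dotted lines mark 1 and -1. Slc16a1 lies at 1.38 in astroglia-like cells and at -0.97 in all filtered cells.

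The other genes of the pathway fell into 5 lists. Their counts are to be read beside the 13.7% of all genes that rose and the 10.1% that fell, and with so few genes a list none is shown to stand apart. Of 10 further glycolytic enzymes, 9 were tested, 3 rose and 1 fell, with a median log2 fold change of 0.76. Pfkp, the platelet-type phosphofructokinase, rose most, from 3.97 and 2.21 CPM to 111.8 and 156.2 CPM (log2 fold change 5.80 ± 0.32, adjusted p = 0.000789, edgeR). Eno1 and Pfkm, named after their values were seen, were the other two that rose. Hk2, the inducible hexokinase, fell from 28.9 and 29.1 CPM to 10.4 and 5.29 CPM (-1.64 ± 0.33, adjusted p = 0.0122, edgeR). Gapdh, the dehydrogenase often used as a reference gene, was at 1847 and 1510 CPM postnatally and 2616 and 2451 CPM at 3m (0.85 ± 0.25, adjusted p = 0.0414, edgeR), under the fold limit.

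Of 4 further genes that control glycolytic flux, 1 rose and none fell. This was Pfkfb4, a relative of Pfkfb3, from 12.45 and 8.18 CPM to 73.5 and 65.0 CPM (log2 fold change 3.05 ± 0.26, adjusted p = 0.00135, edgeR). Pfkfb3 and Pfkfb4 therefore moved in opposite directions. Of 10 genes for pyruvate entry into mitochondria, 1 rose and 2 fell. Pdk2, a kinase that inhibits pyruvate dehydrogenase, rose by 1.58 ± 0.21 (adjusted p = 0.00375, edgeR), and its relative Pdk3 fell, at -1.89 ± 0.41 (adjusted p = 0.0162, edgeR). The other that fell, named after its value was seen, was Pcx, encoding pyruvate carboxylase.

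Of 5 further transporter genes, 2 were tested and both rose. They were Slc2a1 and Bsg, which encodes the chaperone that brings MCT1 to the membrane and went from 471 and 414 CPM to 1116 and 1289 CPM (1.70 ± 0.21, adjusted p = 0.00321, edgeR). The other monocarboxylate transporters were too rare to test in astroglia-like cells, with 1, 4, 1 and 0 UMIs for Slc16a3 and 4, 7, 0 and 0 UMIs for Slc16a7. Of 8 glycogen genes, 3 rose and none fell. Pygm, the muscle-type glycogen phosphorylase, rose from 1.86 and 0.519 CPM to 28.9 and 32.5 CPM (5.16 ± 0.48, adjusted p = 0.00153, edgeR).

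The balance within each isoenzyme pair was read as a share of the pair's UMIs. UMIs are counted at the 3′ end, so gene length does not enter. In astroglia-like cells Aldoc made up 75.8% and 68.0% of Aldoc and Aldoa UMIs postnatally and 85.1% and 85.8% at 3m, a difference of 13.5 percentage points. Ldhb made up 81.2% and 72.7% of lactate dehydrogenase UMIs postnatally and 92.9% and 93.8% at 3m, a difference of 16.4 points. Neither pair overlapped between ages, and the two-sided exact permutation p was 0.333 for each, the smallest that 2 libraries per age allow. Exact 95% binomial intervals, which cover counting error only, did not overlap between ages either. Without cells holding a cell cycle UMI the differences were 9.56 and 11.6 points. Averaged over cells instead of UMIs, the differences were 14.9 and 13.7 points.

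**Figure D3:**
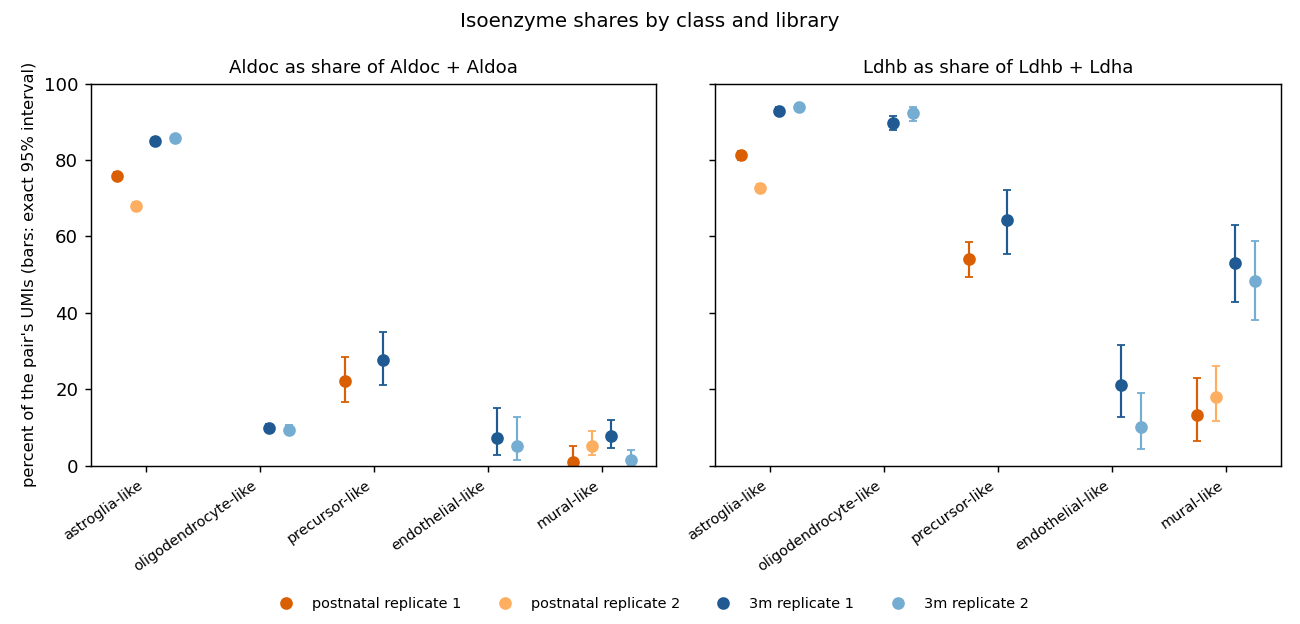
Aldoc as a percent of Aldoc and Aldoa UMIs (left) and Ldhb as a percent of Ldhb and Ldha UMIs (right), by class and library for classes of at least 20 cells, with exact 95% binomial intervals. Oligodendrocyte-like cells hold Ldhb shares of 89.7% and 92.3% beside Aldoc shares of 9.92% and 9.46%.

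Cells were thinned to 2000 UMIs each to compare how many held a UMI of a gene, which left out 18 to 51 shallower astroglia-like cells per library. Aldoc was then found in 86.0% and 72.7% of postnatal cells and 94.5% and 96.9% of 3m cells. Oligodendrocyte-like cells at 3m held it in 9.52% and 8.28% of cells, at median depths of 9005 and 13324 UMIs against 6006.5 and 8524 in astroglia-like cells. Ldha was in 33.9% and 31.5% of postnatal cells and 19.6% of cells in both 3m libraries. Slc16a1 was in 4.32% and 3.30% of postnatal cells and 9.82% and 7.31% of 3m cells, and Pfkfb3 in 8.31% and 9.25% against 4.00% and 3.08%. Each of these age differences had an exact permutation p of 0.333, the smallest possible. Without thinning, Aldoc was found in 94.6% to 96.6% of cells of each library, Ldha in 72.4% and 73.9% against 41.8% and 46.3%, Slc16a1 in 14.8% and 21.6% against 22.7% and 26.4%, and Pfkfb3 in 34.9% and 43.0% against 11.8% and 15.2%.

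The cells of a library varied widely around these levels. Aldoc had a median of 44.2 and 43.6 UMIs per 10000 UMIs of a cell at 3m, with the middle 80% of cells between 11.3 and 78.5 in replicate 1 and between 16.7 and 92.8 in replicate 2. In the postnatal libraries the medians were 13.1 and 8.54, and the upper ends of that range, 26.8 and 19.1, stayed under both 3m medians. For Ldhb the medians were 9.84 and 8.27 postnatally and 13.7 and 13.8 at 3m, and the same ranges overlapped. Ldha had a median of 1.62 and 1.53 postnatally and 0 in both 3m libraries.

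Within the postnatal libraries, dividing cells differed from the rest. Astroglia-like cells with at least 3 UMIs of cell cycle genes (23 and 65 cells) were set against those with none (265 and 289 cells), with the library as a block. Aldoc was lower in cycling cells, at 516 and 201 CPM against 1575 and 1088 CPM, a log2 fold change of -1.99 ± 0.20 (adjusted p = 2.69e-06, edgeR). Hk1 was also lower, at 13.2 and 13.4 CPM against 39.4 and 36.7 CPM (-1.41 ± 0.31, adjusted p = 0.00292, edgeR), but was not called by DESeq2 (adjusted p = 0.153). These 2 of 9 members tested were called, and none was called higher, beside 9% of all genes lower and 9.07% higher. Ldhb was at 690 and 456 CPM against 1030 and 899 CPM (-0.74, adjusted p = 0.00554, edgeR). Ldha was at 231 and 480 CPM against 221 and 196 CPM, so the libraries differed in size (0.79, adjusted p = 0.0259, edgeR). Pfkfb3 (-0.90, adjusted p = 0.0112) and Pgk1 (0.59, adjusted p = 0.0192) were also under edgeR's fold limit. Slc16a1, Pkm and Aldoa stood at 0.88, 0.46 and -0.51, with adjusted p of 0.0506, 0.0914 and 0.13. Cycling cells were deeper, with median UMIs of 15706 and 31558 against 7939 and 11368. Their 8 astroglia markers summed to 3931 and 1929 CPM against 6598 and 5687 CPM. The 8 astrocyte genes not used for gating summed to 17725 and 4350 CPM against 38703 and 20368 CPM. Ribosomal protein genes summed to 121952 and 187674 CPM against 69785 and 99482 CPM. The part of depth and of these lists was not tested.

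Sums over all filtered cells mixed the classes in other proportions at each age. Astroglia-like cells held 54.0% and 68.3% of UMIs postnatally and 22.6% and 33.2% at 3m, when oligodendrocyte-like cells held 56.0% and 54.0%. In such sums fewer cells of a type and less RNA per cell cannot be told apart. Aldoc rose by 1.13 ± 0.20 (adjusted p = 0.00728, edgeR) while Ldha and Pfkfb3 fell, with log2 fold changes of -1.94 ± 0.11 (adjusted p = 0.000249) and -1.12 ± 0.14 (adjusted p = 0.00291, edgeR). These were 1 member higher and 2 lower, beside 15.7% and 13.3% of 14288 genes. Aldoa, at 0.87 ± 0.13 (adjusted p = 0.00422, edgeR), and Pkm, at -0.55 ± 0.13 (adjusted p = 0.0181, edgeR), stayed under the fold limit. Hk1, Slc2a3, Ldhb and Pgk1 stood at 0.17, -0.03, -0.08 and -0.15, with adjusted p of 0.321 or more. Without postnatal replicate 2, without 3m replicate 2 and without scaling, Aldoc was not called and Slc16a1 was called lower.

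The gated classes that held UMIs of Slc16a1 differed between the ages, but most of the postnatal UMIs lay in cells of no class. Slc16a1 stood at 206 and 157 CPM over all filtered postnatal cells and at 78.9 and 87.4 CPM at 3m. The log2 fold change was -0.97 ± 0.16 (adjusted p = 0.00655, edgeR) and stayed just under the fold limit. In the postnatal libraries, ungated cells held 63.6% and 85.6% of its UMIs and endothelial-like cells 30.3% and 6.12%, while astroglia-like cells held 4.52% and 8.15%. The ungated postnatal cells had UMIs of all 8 endothelial markers, with a summed level of 3311 and 3117 CPM. They also held all 8 mural markers, at 3186 and 2209 CPM, and the 4 hemoglobin genes, at 19154 and 24835 CPM. At 3m, oligodendrocyte-like cells held 58.1% and 55.7% of Slc16a1 UMIs. Aldoc, in contrast, lay in astroglia-like cells at both ages, which held 94.3% and 88.4% of its UMIs postnatally and 81.9% and 95.02% at 3m.

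**Figure D4:**
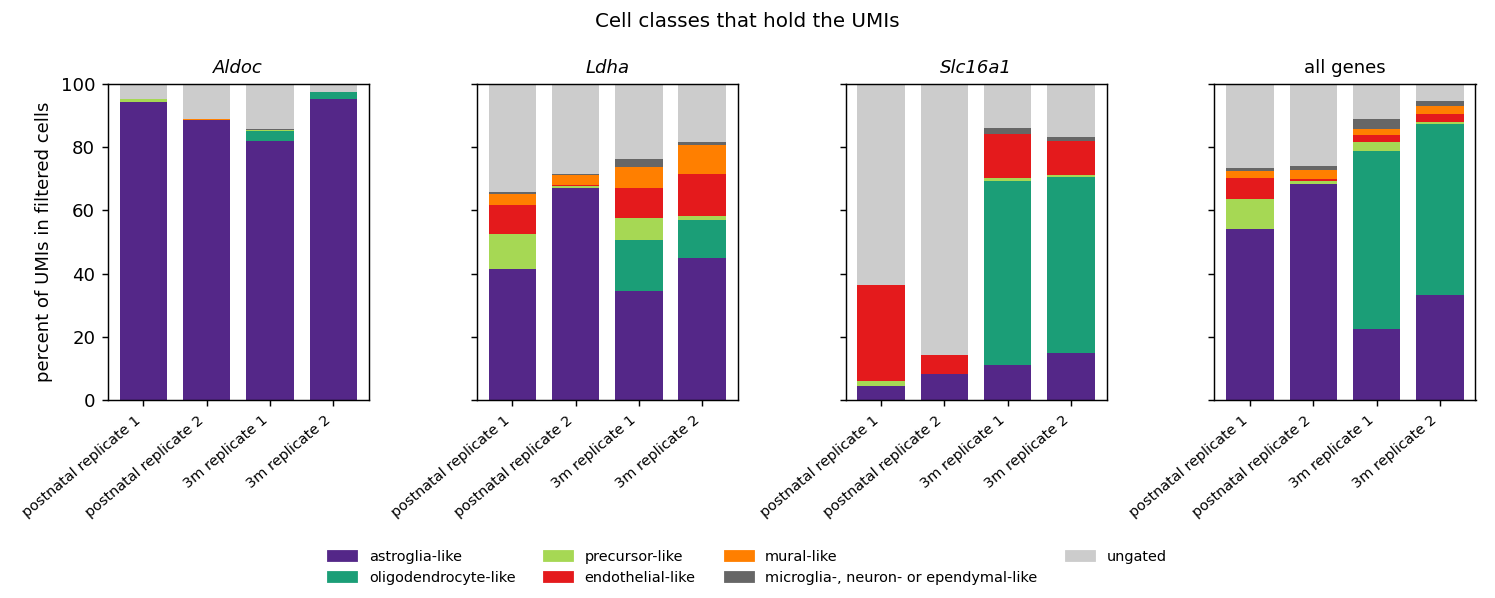
Percent of the UMIs of Aldoc, Ldha, Slc16a1 and all genes that lay in each cell class, as stacked bars by library. Astroglia-like cells hold 81.9% to 95.02% of Aldoc UMIs, and oligodendrocyte-like cells hold 58.1% and 55.7% of Slc16a1 UMIs at 3m and none in the postnatal libraries.

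Class levels were compared within libraries that held at least 20 cells of both classes. Oligodendrocyte-like cells were set against astroglia-like cells in both 3m libraries. They had lower Aldoc, Ldhb, Ldha, Hk1 and Pkm and higher Slc16a1 and Slc2a3, so 5 members were lower and 2 higher, beside 26% and 17.8% of 11616 genes. Slc16a1 stood at 81.9 and 90.1 CPM against 39.2 and 38.9 CPM, a log2 fold change of 1.15 ± 0.12 (adjusted p = 6.16e-07, edgeR). Ldha stood at 20.02 and 15.3 CPM (-2.47 ± 0.13, adjusted p = 1.98e-10, edgeR) and Ldhb at 175 and 184 CPM (-2.95 ± 0.08, adjusted p = 8.79e-14, edgeR). Aldoc stood at -6.06 ± 0.10, Hk1 at -1.56 ± 0.14 and Pkm at -1.19 ± 0.08, with adjusted p of 1.47e-07 or less in edgeR. Pgk1 (-0.40, adjusted p = 0.000771) and Aldoa (-0.28, adjusted p = 0.00442) stayed under edgeR's fold limit, and Pfkfb3 stood at -0.39 (adjusted p = 0.122). Slc2a3, at 1.60 ± 0.52 (adjusted p = 0.013, edgeR), rested on 33 and 23 UMIs against 5 and 4, and DESeq2 did not call it (adjusted p = 0.437).

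Low values in these cells were set beside those of genes that mark astrocytes. Aldoc, at 63.5 and 64.6 CPM in oligodendrocyte-like cells, reached 1.482% and 1.499% of its astroglia-like level. The 8 astrocyte genes not used for gating reached 0.164% to 2.01% and 0.312% to 2.30%, so Aldoc lay within their range in both libraries, above each of them but Plpp3. Their medians were 0.520% and 0.781%. The part of free RNA in the Aldoc level was not tested. Ldhb reached 12.4% and 13.3%, above each of those 8 genes. Slc16a1 in astroglia-like cells was 8.15% and 10.5% of its endothelial-like level at 3m. The summed endothelial markers stood at 0.0239% and 0.0327%, but the gate used them, so low values were set in advance. Slc2a1, not a gating gene, stood at 7.62% and 7.25%. Postnatally Slc16a1 was at 1.78% and 1.38%, the markers at 0.129% and 0.0973% and Slc2a1 at 4.86% and 2.89%. These rest on only 12 and 6 endothelial-like cells, under the limit of 20 set for tests. The 4 hemoglobin genes summed to 81917 and 193973 CPM in those cells. By the same measure against oligodendrocyte-like cells at 3m Slc16a1 was 47.9% and 43.2%. Their markers, also used by the gate, stood at 0.578% and 0.536%, and Slc2a1 at 214% and 181%. The part of free RNA in the Slc16a1 level was not tested.

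Endothelial-like cells could be compared at 3m, with 33 cells in each library. Slc16a1 was higher there, at 481 and 370 CPM (3.09 ± 0.18, adjusted p = 2.03e-06, edgeR), as was Ldha, at 288 and 355 CPM (1.34 ± 0.20, adjusted p = 0.00068, edgeR). Aldoc, Ldhb, Aldoa, Pgk1 and Pfkfb3 were lower, so 2 members were higher and 5 lower of 9 tested, beside 15.8% and 23.1% of 9896 genes. Aldoc stood at -7.85 ± 0.25, Ldhb at -4.92 ± 0.22, Aldoa at -1.40 ± 0.15 and Pgk1 at -1.29 ± 0.22, with adjusted p of 0.00132 or less in edgeR. Hk1 (-0.76, adjusted p = 0.0735) and Pkm (-0.10, adjusted p = 0.659) were not called by edgeR. No Pfkfb3 UMI was found in 422359, and with 3 UMIs over both libraries as the limit its level was at least 2.87-fold lower than in astroglia-like cells. The 4 hemoglobin genes summed to 616 and 52487 CPM in these cells, and their part was not tested. DESeq2 called 4 of these 7 members and 1584 of 9604 genes, against 3846 of 9896 in edgeR, and not Ldha (adjusted p = 0.0689), Pgk1 (adjusted p = 0.106) or Pfkfb3 (adjusted p = 0.302). Without scaling, Pgk1 was not called lower, and 54.7% of all calls were higher instead of 40.6%. In the postnatal libraries only 12 and 6 cells were endothelial-like, with Slc16a1 at 966 and 1357 CPM, and no test was made.

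**Figure D5:**
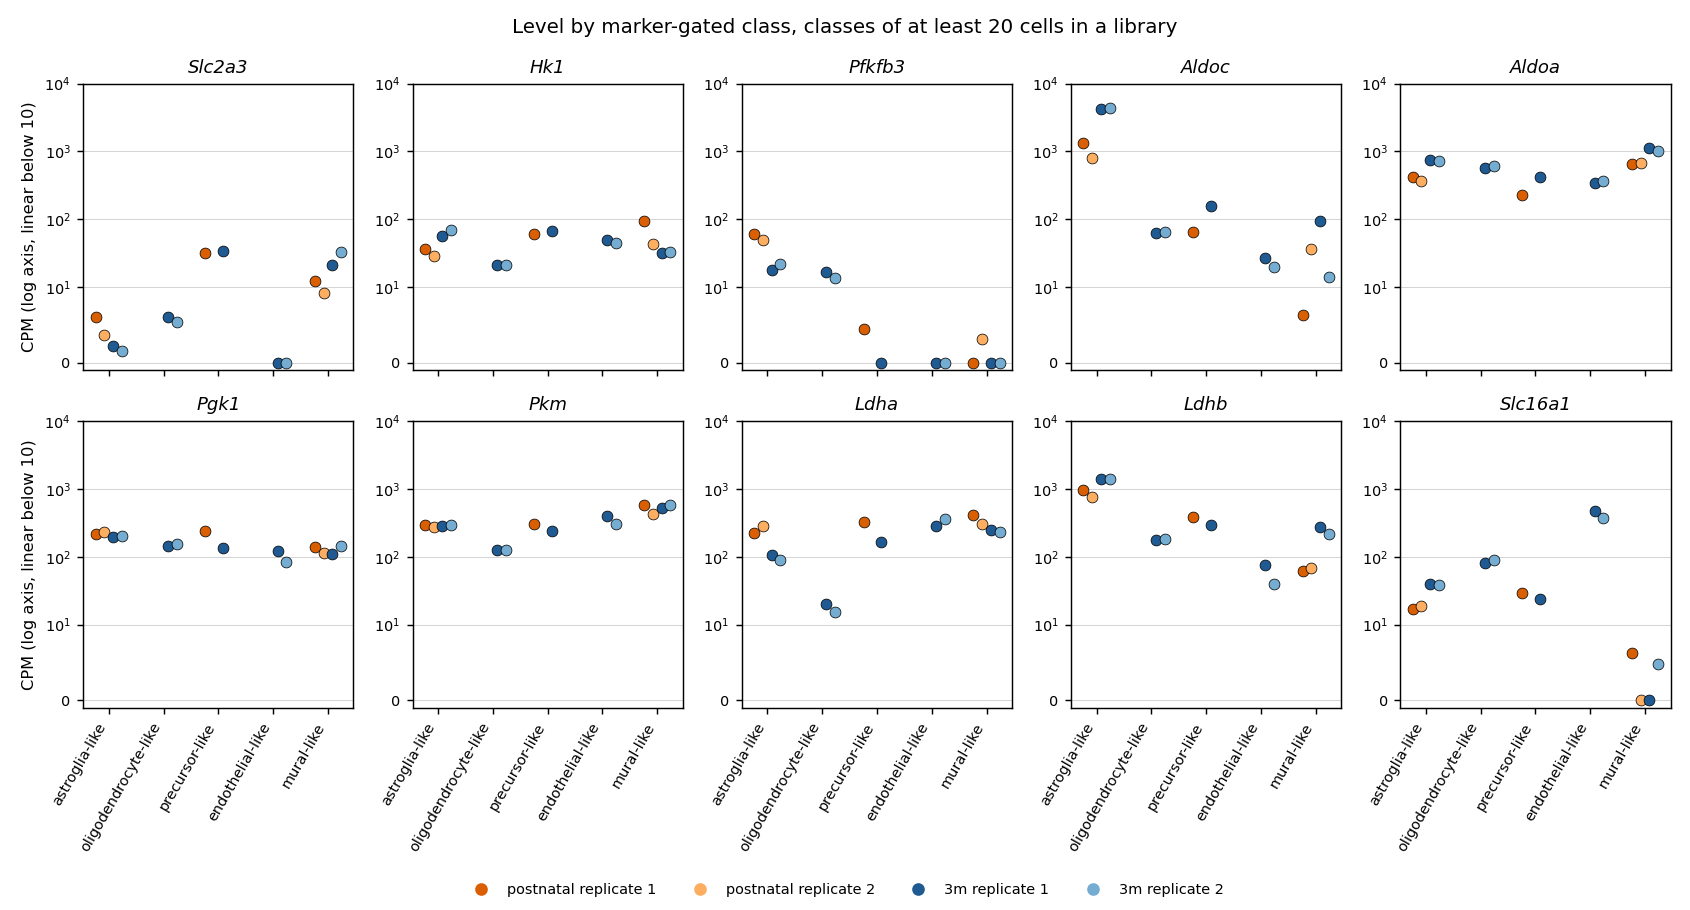
CPM of each member (log axis, linear below 10) in each class, with 1 point for each library that held at least 20 cells of the class. Slc16a1 is highest in endothelial-like cells at 481 and 370 CPM, and Aldoc is highest in astroglia-like cells in each library.

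Oligodendrocyte precursor-like cells were compared in postnatal replicate 1 (67 cells) and 3m replicate 1 (42 cells). Aldoc (-5.04 ± 0.82, adjusted p = 0.00304) and Ldhb (-2.29 ± 0.62, adjusted p = 0.0344, edgeR) were lower, and so was Pfkfb3, with 3 UMIs in all against 267. The ratio of Pfkfb3 levels was 14.5, with an exact 95% counting interval of 4.90 to 70.6. Slc2a3 was higher at 32.3 and 34.0 CPM (2.49 ± 0.55, adjusted p = 0.0137, edgeR). These were 1 member higher and 3 lower, beside 7.3% and 8.71% of 10451 genes. Without scaling, 64.3% of all calls were higher instead of 45.6%, with the same counts of members. DESeq2 did not call Slc2a3 (adjusted p = 0.193) and called Aldoa lower. Ldha was at 328 CPM in the postnatal and 163 CPM in the 3m library, against 223 and 107 CPM in astroglia-like cells. Its log2 fold change was 0.09 with scaling (95% interval -0.74 to 0.91) and 0.58 without. Aldoa, Pgk1, Pkm, Slc16a1 and Hk1 stood at -1.36, -0.66, -0.61, -0.35 and 0.05, with adjusted p of 0.0873 or more in edgeR.

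Mural-like cells, the pericytes and smooth muscle of vessel walls, reached 20 cells in every library. Against astroglia-like cells they had lower Aldoc, Ldhb, Pfkfb3 and Slc16a1 and higher Slc2a3, beside 17.5% of 11109 genes lower and 12.5% higher. Aldoc stood at -6.25 ± 0.55 and Ldhb at -3.28 ± 0.29, with adjusted p of 2.94e-06 and 2.96e-06 in edgeR. Pfkfb3 had 1 UMI against 705, a ratio of levels of 38.3 (exact counting interval 6.85 to 1514). Slc16a1 had 2 UMIs in all mural-like cells against 399 in astroglia-like cells, a ratio of levels of 10.8 (exact counting interval 2.98 to 89.8). Slc2a3 stood at 12.51, 9.23, 21.0 and 33.0 CPM in the 4 libraries (2.26 ± 0.71, adjusted p = 0.0273, edgeR), and was not called without 3m replicate 1 or without 3m replicate 2. Ldha was at 413, 308, 247 and 231 CPM (0.64 ± 0.23, adjusted p = 0.0531, edgeR). Pgk1 (-0.97 ± 0.22, adjusted p = 0.00503) and Pkm (0.62 ± 0.21, adjusted p = 0.0401) stayed under edgeR's fold limit, and Aldoa and Hk1 stood at 0.41 and -0.11 (adjusted p of 0.193 and 0.873).

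In mural-like cells 1 of the 5 members tested changed with age. Ldhb rose from 62.5 and 67.7 CPM to 278 and 217 CPM (1.96 ± 0.31, adjusted p = 0.00205, edgeR), beside 7.02% of 3946 genes higher and 5.35% lower. Without 3m replicate 1 it was not called (adjusted p = 0.137), and no gene was, with 816 genes at an unadjusted p under 0.05. Aldoa, at 0.75 ± 0.21 (adjusted p = 0.0368, edgeR), stayed under the fold limit, and Ldha, Pkm and Pgk1 stood at -0.51, 0.21 and 0.12, with adjusted p of 0.21 or more. Other lists moved with age in these cells too. The 8 astroglia markers summed to 43.8 and 43.1 CPM postnatally, with 6 and 2 of them at 0, and to 152 and 89.6 CPM at 3m, with 3 and 6 at 0. The 8 astrocyte genes not used for gating summed to 3390 and 2666 CPM and then to 9214 and 9345 CPM. Oligodendrocyte markers went from 6.26 and 0 CPM to 73.5 and 70.8 CPM, and cell cycle genes from 619 and 2265 CPM to 5.25 and 33.0 CPM. The part of these lists in the Ldhb values was not tested. The Ldhb share of lactate dehydrogenase UMIs went from 13.2% and 18.0% to 53.0% and 48.4%. The difference between the age changes of mural-like and astroglia-like cells was itself tested. For Ldhb it was 0.92 ± 0.39 (adjusted p = 0.173, edgeR). For Ldha, Aldoa, Pkm and Pgk1 it was 0.57, -0.45, -0.12 and -0.01, and for Slc2a3 2.39 ± 1.31, with adjusted p of 0.349 or more in edgeR. For Aldoc it was -1.43 ± 0.60 (adjusted p = 0.171, edgeR). Slc16a1 and Pfkfb3, with 2 and 1 mural-like UMIs in all, were not called either. Only Hk1 differed, at -2.18 ± 0.56 (adjusted p = 0.00338, edgeR), as it went from 93.8 and 43.1 CPM to 31.5 and 33.0 CPM in mural-like cells and rose in astroglia-like cells. This was 1 of 10 members, beside 3.07% of 11109 genes lower and 2.91% higher, and it was lost without 3m replicate 2 (adjusted p = 0.0938) and without postnatal replicate 1 (adjusted p = 0.0726). Without scaling, Ldhb was called as well, at 1.17 (adjusted p = 0.0458), and 68.9% of all calls were positive instead of 48.6%. Aldoc was called without 3m replicate 1, at -3.25 (adjusted p = 0.0271), and without postnatal replicate 1, at -2.30 (adjusted p = 0.00282), on 1, 12, 18 and 3 mural-like UMIs. The mural-like values of Hk1 rested on 15, 14, 6 and 7 UMIs.

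Across the 15 sums of a class in a library, the genes most like Aldoc were Kcnn2, Pts, Clu, Dio2 and Trpm3, with Pearson's r of log CPM from 0.973 to 0.947 among 9876 genes. For Ldhb they were Slc46a1, Psd2, Kcnn2, Tspan7 and Pgm2 (0.941 to 0.915), and for Slc16a1 Afdn, Gse1, Mindy1, Sema7a and Ddc (0.921 to 0.887). The sums share 4 libraries and differ in depth, so these values are a description only.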

How the data were processed

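Striatal cells were counted by the authors with Cell Ranger (the study's methods name cellranger count on mm10) and merged with Seurat, version 3.1.1 in the submitters' processing notes and a later one in the methods. The deposited table, made by the authors, holds unnormalised UMI counts for genes in cells, with runs of a library pooled. Cell types were not given there and were rebuilt from markers. The members and lists were chosen with earlier results of these data known. Cells with over 10% mitochondrial UMIs or under 500 genes were left out. No doublet caller was run, and cells with mixed markers stayed ungated. At the gate's limit lay 188 of 1424 astroglia-like cells, most of them postnatal. They were 54 of 352 and 108 of 472 in the postnatal libraries and 11 of 304 and 15 of 296 at 3m. Counts were summed per class and library and tested with edgeR 4.0.16 in R 4.3.3 (filterByExpr, TMM factors, glmQLFit and glmQLFTest), with Benjamini-Hochberg adjustment over all genes tested. The SE is the size of the log2 fold change divided by the root of F. A gene was called at an adjusted p of at most 0.05 and a log2 fold change of at least 1 in size, the study's limits. Sums of fewer than 20 cells were not tested. Shares were compared with two-sided exact permutation tests and carry Clopper-Pearson intervals (SciPy 1.17.1). Named were the members tested in each comparison, and of each other list the called genes with the highest and lowest fold change, plus Gapdh, Slc2a1, Slc16a3 and Slc16a7. Of the genes this rule names, 1 is not reported here. Genes most like a member were ranked over sums with a mean of at least 10 CPM. DESeq2 1.42.0, other scalings, gates and filters, and the fit with replicate numbers as a block were alternatives. The study describes independent preparations of pooled animals, but not of these libraries by name, so p-values measure the spread between these libraries. Near copies took few reads, Aldoa.1, Aldoart1 and Aldoart2 holding 4, 2 and 1 UMIs against 18111 for Aldoa. Hk1os, antisense to Hk1, held 87 UMIs against 1335. Intervals and limits at 0 counts cover counting error only.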

Additional observations from a re-analysis of the deposited data

Results flagged for a closer look

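Hk1 stood out because its change with age differed between mural-like and astroglia-like cells in a test of that difference (edgeR, log2 difference -2.18 ± 0.56, adjusted p = 0.00338). The gene stood at 93.8 and 43.1 CPM in postnatal mural-like cells and at 31.5 and 33.0 CPM at 3m, beside 36.0 and 28.8 CPM and 56.8 and 69.95 CPM in astroglia-like cells. The mural-like values rest on 6 to 15 UMIs per library. Under 11 alternatives the difference kept its direction and ranged from -2.48 to -1.91, and 9 of the 11 called it.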

How the results depend on the processing

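Leaving out 1 library moved the counts widely. In astroglia-like cells it left 2 to 6 members and 980 to 3839 genes called, the lowest without 3m replicate 2, and in mural-like cells 0 to 1 members and 0 to 664 genes, with none called without 3m replicate 1. For the difference between these classes it left 0 to 2 members and 287 to 679 genes. Values that changed sign this way were mostly small. In whole-library sums Ldhb ranged from -0.20 to 0.039, Hk1 from -0.034 to 0.36 and Slc2a3 from -0.54 to 0.66. With age in mural-like cells Pgk1 ranged from -0.12 to 0.28 and Pkm from -0.024 to 0.39. Against astroglia-like cells, mural-like Hk1 ranged from -0.59 to 0.29. For the difference between the classes Aldoc ranged from -3.25 to 1.19, Pgk1 from -0.24 to 0.19, Pfkfb3 from -4.71 to 1.33 and Slc16a1 from -6.62 to 3.93. The shares of cells ranged from -4.26 to 1.26 points for Pgk1 and from -0.539 to 6.09 points for Pkm. With no scaling factor Pgk1 was at -0.17 with age in astroglia-like cells, Slc16a1 at 0.12 in precursor-like, Pkm at 0.26 in endothelial-like and Hk1 at 0.10 in mural-like cells against astroglia-like cells, and the difference between the classes was at 0.23 for Pgk1 and 0.12 for Pkm with 2 members called. With no filter on low counts 816 genes were called with age in mural-like cells, precursor-like Hk1 was at -0.011 and the class difference of Pgk1 at 0.086. A gate of 5 markers put precursor-like Hk1 at -0.0091. With DESeq2, 205 genes were called with age in mural-like cells, 846 in precursor-like cells, 4 members and 1584 genes in endothelial-like cells, 361 for the class difference, and 1 member and 889 genes in cycling cells. Without the fold limit, 6 members and 6488 genes were called in whole-library sums, 2 members in mural-like cells with age, 8001 genes in oligodendrocyte-like cells, and 6 members and 3071 genes in cycling cells. Unthinned, the shares of cells differed with age by -8.24 points for Pkm, -2.12 for Ldhb and -4.10 for Slc2a3, and thinned to 1000 UMIs by 0.757 for Pgk1 and -0.298 for Slc2a3. The cause of these changes was not tested.

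The labels do not say what the replicate numbers stand for. Both replicate 1 libraries were read in 4 runs and both replicate 2 libraries in 2, and the replicate 2 libraries shared 95 barcodes. Same-numbered astroglia-like sums deviated together with r = 0.236 over 8731 genes. With the replicate block 6 members and 3022 genes were called in astroglia-like cells, 3 members and 4255 genes in whole-library sums and 1 member and 581 genes in mural-like cells, and Slc2a3 in whole-library sums was at 0.019. Differences in the isoenzyme shares kept their direction under all alternatives. A gate of 5 markers left too few cells for the age test in mural-like cells, the difference between the classes and the cycling comparison, and the comparisons of classes over 2 libraries had no residual degree of freedom once 1 was left out.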
